A study of Mus musculus with 9 samples.

Results

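The genes described here act in the activation of transforming growth factor beta (TGF-beta) and in the signal it sends: Lrrc32, Tgfb1, Furin, Tgfbr1, Tgfbr2, Smad2, Smad3, Smad4, Smad7 and Ski. They were chosen by name. All 10 had a row among the 13698 genes of the deposited table, and all 10 had a mean above 10 CPM (reads scaled to a common library total). RNA was sequenced from regulatory T (Treg) cells sorted from spleen and lymph node of female mice of a C56Bl6/129 mix background, giving 9 libraries, 3 from each kind of cell. Deficient cells were the YFP+MHCII- cells of LRFffThpokff Foxp3 Cre-YFP/X mice, in which Cre is made from the Foxp3 allele and removes Thpok (gene Zbtb7b) and LRF (gene Zbtb7a). The animal controls were YFP-MHCII-CD25hi cells of the same 3 mice, numbered 142114, 232614 and 432614; they use the unmodified Foxp3 allele and keep both factors. The genetic controls were YFP+MHCII- cells of 3 WT Foxp3 Cre-YFP/X mice, numbered 124, 8619 and 8800, which carry the same Cre allele and keep both factors. All 3 groups thus came from mice with a Foxp3 Cre-YFP allele, but the animal controls were also selected on CD25. No age of the mice is stated in the labels.

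TGF-beta1 is made as a precursor, which the protease furin cleaves inside the cell. The cleaved growth factor stays bound to its propeptide in a latent complex, and on activated Treg cells that complex is held at the surface by GARP, the product of Lrrc32. Once released, TGF-beta binds TGFBR2, which recruits and phosphorylates TGFBR1. The receptor then phosphorylates SMAD2 and SMAD3, which enter the nucleus with SMAD4. SMAD7 blocks the receptor and SKI represses SMAD targets. In T cells the pathway restrains activation and helps to induce Foxp3.

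Depth is unknown, because the deposited log2 CPM values were already normalized to the same distribution in every library. Zbtb7b lay between 0.147 and 0.366 CPM in the deficient libraries and between 76.9 and 149 CPM in the 6 control libraries, as their labels say. Zbtb7a lay between 78.8 and 103 CPM in the deficient libraries and did not differ (adjusted p = 1 and 0.704 against genetic and animal controls); the labels do not say which exons were removed, so this level does not test the deletion. Of the Treg markers, Il2ra lay between 416 and 551 CPM in the deficient libraries. It lay at 584 to 788 CPM in the genetic and 738 to 800 CPM in the animal controls. Cd4 lay at 329 to 381 CPM in the deficient libraries, against 678 to 1030 and 820 to 988 CPM in genetic and animal controls. For Tnfrsf18 the ranges were 163 to 205, 195 to 267 and 268 to 330 CPM in the same order. Ctla4 lay between 36.6 and 65.8 CPM in all 9 libraries. Foxp3 lay between 24.8 and 38.1 CPM in the 6 YFP+ libraries against 754 to 1000 CPM in the animal controls. Platelets and endothelial cells also make GARP. Of 8 platelet markers 2 were measured (Gp1ba, under 3 CPM in every library, and the integrin chain Itgb3, at 23.5 to 69.6 CPM in the deficient libraries, 71.3 to 103 CPM in the genetic and 31.4 to 62.9 CPM in the animal controls), and of 6 endothelial and stromal markers only Pecam1 was, which T cells also express. Genetic control 8619 had the most myeloid transcripts, at 326 summed CPM over 6 of 10 markers, against 20.5 and 19.0 CPM in genetic controls 124 and 8800. The deficient libraries, at 25.6 to 68.8 CPM, all lay above the animal controls, at 6.07 to 11.3 CPM. Erythroid markers (6 of 8 measured) summed to 76.1 CPM in genetic control 8619 and 40.8 CPM in deficient library 232614. Every other library had 1.13 CPM or less.

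Set per kilobase of exon, Lrrc32 had the highest level of the 10 genes in each group. The length was that of all annotated exons of a gene merged, not of the transcripts the cells express. The order of the genes is therefore approximate. It stood at 101 ± 4.36 CPM per kb in the deficient cells, 83.0 ± 23.0 in the genetic controls and 91.5 ± 20.3 in the animal controls (mean ± SD, n = 3). In the deficient cells every library of Lrrc32 lay above every library of the next gene, Ski. In each control group the ranges of Lrrc32 and Ski overlapped. Ski, Tgfbr2 and Smad4 followed in that order in each group, between 34.5 and 66.5 CPM per kb, with overlapping ranges between neighbours. Tgfb1, Tgfbr1, Smad7, Smad2 and Smad3 made up the lower levels, between 9.90 and 29.1 CPM per kb. Furin stood at 10.1 ± 2.38 CPM per kb in the genetic controls and 11.9 ± 4.06 in the animal controls, where its range overlapped those of its neighbours in the order. In the deficient cells it stood at 2.41 ± 1.27 CPM per kb, with each library under each of Smad3, the next gene above it.

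**Figure D1:**
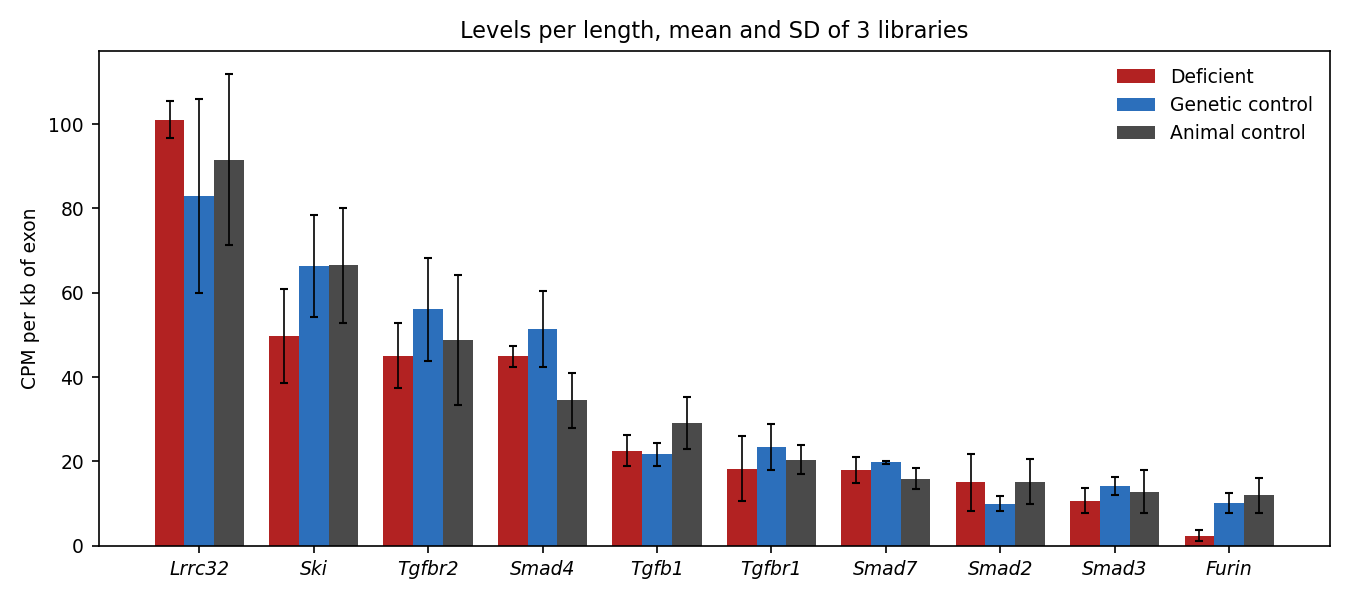
Levels of the 10 genes per kilobase of exon (bars, mean CPM per kb; error bars, SD of 3 libraries; linear axis from 0) in deficient cells, genetic controls and animal controls. Lrrc32 is the highest gene in each group, and Furin is at 2.41 CPM per kb in the deficient cells against 10.1 and 11.9 in the controls.

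Setting deficient cells against genetic controls asks what goes with the loss of both factors among YFP+ cells of different mice. Setting them against animal controls asks the same among cells of the same mice, across a difference in Foxp3 allele and gate. The main fit compares group means without pairing by mouse, which enters only in an alternative. Both share the deficient libraries, so they are not independent of each other. None of the 10 genes was called against the genetic controls by limma at an adjusted p under 0.05, where 0.869% of all genes were called; at an unadjusted p under 0.05 stood 1 of the 10, Furin, beside 10.6% of all genes. Against the animal controls 0 of 10 were called, where 0.891% of all genes were called, and at an unadjusted p under 0.05 Furin stood alone again, beside 11.9% of all genes. These shares of the 10 genes are near the background. The fitted differences of the 10 genes had a median of -0.24 on the log2 scale against the genetic controls and -0.14 against the animal controls, beside 0.04 and 0.04 over all genes. Of the 10 genes 3 had positive and 7 negative values in each comparison. Over all genes 7187 were positive and 6511 negative against the genetic controls, and 7203 and 6495 against the animal controls. The positive genes were Lrrc32, Tgfb1 and Smad2 against the genetic controls. Against the animal controls they were Lrrc32, Smad4 and Smad7.

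Furin (chromosome 7, 80388585 to 80405436, minus strand, GRCm38), which encodes the convertase that cleaves pro-TGF-beta1 and many other precursors, had the largest difference of the 10 genes in both deficient comparisons. Its level was 28.1, 29.6 and 8.66 CPM in deficient libraries 142114, 232614 and 432614. It was 74.3, 85.9 and 117 CPM in genetic controls 124, 8619 and 8800, and 152, 94.6 and 81.7 CPM in animal controls 142114, 232614 and 432614. All 3 deficient values were under all 6 control values, and the highest deficient value (29.6 CPM) was well under the lowest control value (74.3 CPM). Groups that lay apart with the deficient cells lower were seen for 7.28% of all genes against the genetic controls and 8.10% against the animal controls. In the fit the level was 4.69-fold lower than in the genetic controls (log2 difference -2.23 ± 0.48 SE, 95% interval -3.31 to -1.15, adjusted p = 0.0811) and 5.46-fold lower than in the animal controls (-2.45 ± 0.48, -3.53 to -1.37, adjusted p = 0.0529). By p it ranked 167 and 131 of 13698 genes, outside the 119 and 122 genes called. The 2 control groups differed by -0.22 ± 0.48 (adjusted p = 0.996), and their ranges overlapped.

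Pooled over the 3 groups, the libraries of a group differed more for Furin than for most genes. The pooled within-group SD of Furin was 0.67 on the log2 scale, against a median of 0.46 over the 7550 genes whose mean reached 10 CPM. By group the SD was 1.0 in the deficient cells, 0.33 in the genetic and 0.47 in the animal controls. Deficient library 432614 was the lowest of the 9. Without that library the difference was -1.65 against the genetic controls and -1.87 against the animal controls (adjusted p = 0.102 and 0.0575). Furin passed the threshold against the animal controls after 1 CPM was added to each value before taking the log (-2.38, adjusted p = 0.0401). With the mouse as a block, on the 6 libraries of the 2 groups, the difference stayed at -2.45 with an SE of 0.40. The adjusted p of Furin was then 0.284, in a limma fit that called 0 of all genes. In bulk RNA, fewer cells that express a gene and less RNA per cell cannot be told apart. The summed level of both CD8 markers measured, Cd8a and Cd8b1, was 585 to 593 CPM in the deficient libraries against 28.3 to 85.0 CPM in the genetic and 64.4 to 105 CPM in the animal controls. Whether CD8 T cells or the deficient Treg cells themselves made these transcripts was not tested. Pecam1 lay between 64.3 and 148 CPM in the deficient libraries against 167 to 243 CPM in the 6 controls. The 7 Treg markers summed to 2520 to 2820 CPM against 2780 to 3440 CPM in the genetic and 4440 to 4940 CPM in the animal controls. They did not move alike. Cd4 and Il2ra were lower than in both controls (above). Cd3e, at 1200 to 1310 CPM, lay above the genetic controls (824 to 971 CPM) and overlapped the animal controls. Foxp3, Ctla4, Ikzf2 and Tnfrsf18 overlapped the genetic controls. Of these, all but Ctla4 lay below the animal controls, where Foxp3 alone reached 754 to 1000 CPM. Itgb3 was also lower in the deficient than in the genetic libraries without overlap. The B cell markers (3 of 6 measured) summed to 52.8 to 71.7 CPM in the deficient libraries, above all genetic controls at 13.7 to 28.5 CPM and within the range of the animal controls at 50.2 to 94.9 CPM. Myeloid markers lay above the animal controls, as given earlier. The NK cell markers (2 of 4) overlapped in all groups, at 0.864 to 8.93 CPM, 4.80 to 13.4 CPM and 2.26 to 8.49 CPM in deficient cells, genetic and animal controls. The part of these markers in the Furin values was not tested.

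**Figure D2:**
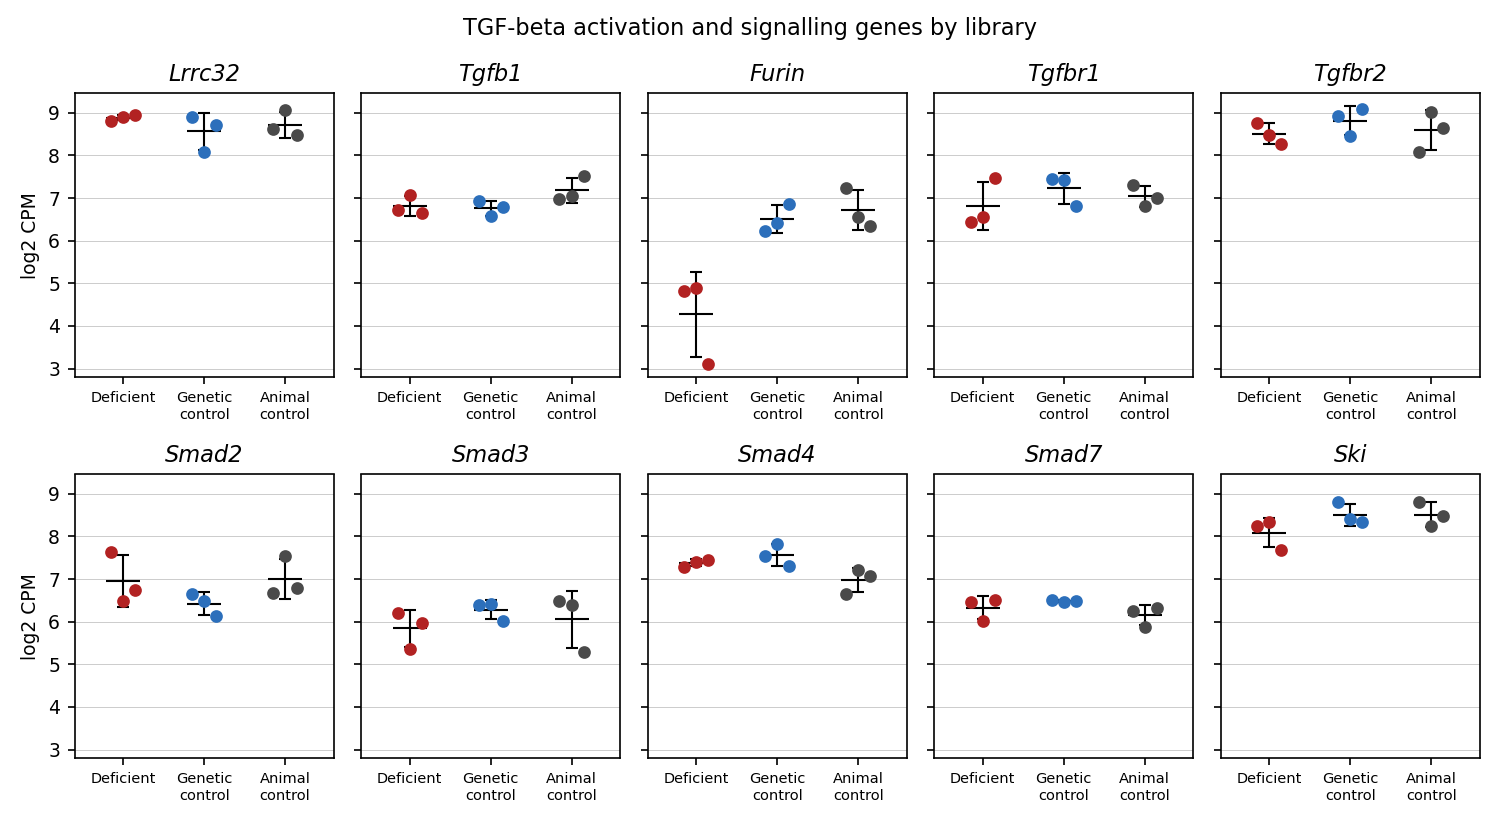
Level of each gene in each library (points, log2 CPM, 1 panel per gene) in deficient cells, genetic controls and animal controls, with the mean (bar) and SD of 3 libraries. The deficient points of Furin lie below all 6 control points, and deficient library 432614 is the lowest at 8.66 CPM on the linear scale. The groups of the other genes lie close together or overlap.

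RefSeq lists 2 starts for Furin, 2624 bases apart. The 250 bases before each are shown because Furin is the member whose deficient libraries lay apart from both control groups, and because the windows differ in makeup. They are written 5′ to 3′ on the minus strand of GRCm38.p6, with capitals for the CAGAC Smad box (either strand) and the TATAAA box. The upstream window is chr7:80405437-80405686 and the downstream window is chr7:80402813-80403062.
Furin upstream start: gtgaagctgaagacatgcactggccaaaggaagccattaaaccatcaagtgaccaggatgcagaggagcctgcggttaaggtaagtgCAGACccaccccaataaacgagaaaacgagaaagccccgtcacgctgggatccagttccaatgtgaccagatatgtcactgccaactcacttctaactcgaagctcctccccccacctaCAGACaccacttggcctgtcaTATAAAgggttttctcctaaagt
Furin downstream start: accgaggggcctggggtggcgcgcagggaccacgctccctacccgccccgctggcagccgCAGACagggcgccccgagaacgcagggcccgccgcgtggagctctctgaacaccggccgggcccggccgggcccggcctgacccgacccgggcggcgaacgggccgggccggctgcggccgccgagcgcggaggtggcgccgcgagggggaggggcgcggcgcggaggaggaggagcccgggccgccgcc
The upstream window was 50.4% G or C with 6 CpG dinucleotides, near the median of 52.4% over all 32851 RefSeq windows of that length. The downstream window was 83.2% G or C with 40 CpG dinucleotides, above 99.6% of windows. CAGAC or its reverse complement was found in the upstream window at -163 and -44 and in the downstream window at -190, counted from the start, and 42.2% of all windows hold it. TATAAA was found at -23 of the upstream window, and 7.59% of windows hold it on the same strand. GGGCGG, the GC box, was found on either strand in the downstream window at -208 and -101, and 32.7% of windows hold it. The palindromic Smad site GTCTAGAC, the Runx core TGTGGT and the STAT site TTCNNNGAA, searched on both strands, were in neither window, while 0.167%, 14.0% and 7.02% of windows hold them. These are matches of letters. The deposited values are per gene, so transcripts from the 2 starts cannot be told apart, and the antisense gene Gm44851 overlaps the 5′ end of Furin, so that reads from both strands there cannot be separated without a stranded count.

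Of the 4 measured genes nearest to Furin, 2 on each side, none was called in either deficient comparison. Fes, a tyrosine kinase gene 0.639 kb away, was under 10 CPM in every library and at the lowest value of the table in 6 of 9. Man2a2, a Golgi mannosidase gene 17.2 kb away, stood at 28.6 ± 2.19 CPM in the deficient cells, 78.7 ± 17.8 in the genetic controls and 31.7 ± 19.5 in the animal controls. Its difference was -1.44 ± 0.47 against the genetic controls (adjusted p = 0.280) and 0.06 ± 0.47 against the animal controls (adjusted p = 0.992). On the other side, Blm, a DNA helicase gene, was under 10 CPM in every library, and Crtc3, a coactivator of CREB, differed by -0.49 ± 0.43 (adjusted p = 0.759) and -0.95 ± 0.43 (adjusted p = 0.419). Across the 9 libraries the genes most like Furin, among 7282 searched, were Il6ra (Pearson r = 0.980), Ank (0.973) and Fuca2 (0.972). Il6ra, the IL-6 receptor chain, stood at 53.9 ± 14.1 CPM in the deficient cells against 122 ± 5.40 and 128 ± 14.5 CPM in the genetic and animal controls. Ank, a pyrophosphate transporter, stood at 12.2 ± 6.53 CPM against 65.3 ± 22.0 and 66.1 ± 13.3 CPM, and Fuca2, a fucosidase, at 9.14 ± 3.79 CPM against 50.7 ± 8.71 and 41.3 ± 7.17 CPM. These values share the libraries and the normalization and are a description.

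Lrrc32 (chromosome 7, 98489283 to 98502181), which encodes the latent TGF-beta docking receptor GARP, had overlapping levels in the 3 groups. It measured 450, 480 and 490 CPM in the deficient libraries, 477, 269 and 422 CPM in the genetic and 392, 537 and 358 CPM in the animal controls. The deficient libraries lay within the range of the controls, and genetic control 8619 was the lowest of the 9. The fitted difference was 0.32 ± 0.22 against the genetic controls (95% interval -0.16 to 0.81, adjusted p = 0.663) and 0.16 ± 0.22 against the animal controls (-0.32 to 0.65, adjusted p = 0.845). Without genetic control 8619, which also had the most myeloid transcripts, the difference from the genetic controls was 0.077.

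Tgfb1 (chromosome 7, 25687002 to 25705077) encodes the cytokine itself. Its level was 105, 135 and 100 CPM in the deficient libraries, 122, 95.3 and 110 CPM in the genetic and 125, 133 and 182 CPM in the animal controls. The deficient range overlapped both controls. The difference was 0.05 ± 0.22 against the genetic controls (95% interval -0.44 to 0.54, adjusted p = 0.985) and -0.37 ± 0.22 against the animal controls (-0.86 to 0.13, adjusted p = 0.568). All 3 animal controls lay above all 3 genetic controls, by a narrow margin and without passing the test (genetic minus animal -0.41 ± 0.22, adjusted p = 0.789).

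Of the receptors, Tgfbr2 (chromosome 9, 116084293 to 116175360), the chain that binds the ligand, measured 436, 360 and 312 CPM in the deficient libraries. It measured 484, 349 and 544 CPM in the genetic and 272, 525 and 402 CPM in the animal controls, and the 3 ranges overlapped. Its differences were -0.30 ± 0.25 (95% interval -0.87 to 0.26, adjusted p = 0.742) and -0.08 ± 0.25 (-0.64 to 0.48, adjusted p = 0.961). Tgfbr1 (chromosome 4, 47353222 to 47414931), the signalling chain, measured 86.4, 93.9 and 177 CPM in the deficient libraries, 175, 173 and 112 CPM in the genetic and 158, 113 and 129 CPM in the animal controls. Deficient library 432614 was the highest of all 9 for Tgfbr1 and the lowest of its group for Tgfbr2. The differences of Tgfbr1 were -0.41 ± 0.31 (95% interval -1.10 to 0.27, adjusted p = 0.699) and -0.23 ± 0.31 (-0.91 to 0.46, adjusted p = 0.845).

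The signal carriers showed no called difference. Smad2 (chromosome 18, 76241580 to 76310963) measured 199, 89.0 and 107 CPM in the deficient libraries, 101, 89.5 and 70.2 CPM in the genetic and 103, 187 and 111 CPM in the animal controls. Its highest values were in 2 libraries of different mice, deficient 142114 and animal control 232614. Its differences were 0.53 ± 0.34 (adjusted p = 0.645) and -0.05 ± 0.34 (adjusted p = 0.986). Without deficient library 142114 the difference from the genetic controls was 0.19. Smad3 (chromosome 9, 63646767 to 63757994), the other receptor-activated SMAD of this pathway, measured 74.1, 41.4 and 62.7 CPM in the deficient libraries, 84.7, 84.8 and 64.7 CPM in the genetic and 90.1, 83.6 and 38.7 CPM in the animal controls. The deficient cells overlapped both controls, with differences of -0.42 ± 0.37 (adjusted p = 0.764) and -0.20 ± 0.37 (adjusted p = 0.906).

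Smad4 (chromosome 18, 73639009 to 73703780), the shared partner of the receptor-activated SMADs, measured 156, 170 and 174 CPM in the deficient libraries, 188, 225 and 158 CPM in the genetic and 101, 148 and 135 CPM in the animal controls. The animal controls were the lowest group, and each of them lay below all 6 YFP+ libraries. The deficient cells differed from the animal controls by 0.40 ± 0.20 (95% interval -0.05 to 0.85, adjusted p = 0.476) and from the genetic controls by -0.18 ± 0.20 (-0.63 to 0.27, adjusted p = 0.822). The control groups, which both keep Thpok and LRF, differed by 0.58 ± 0.20 (0.13 to 1.03, unadjusted p = 0.0173 and adjusted p = 0.664 by limma).

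Among the inhibitors, Smad7 (chromosome 18, 75367529 to 75395935), which blocks the activated receptor and is itself induced by TGF-beta, measured 88.2, 64.8 and 90.5 CPM in the deficient libraries. It measured 91.0, 87.9 and 89.8 CPM in the genetic and 76.5, 58.9 and 80.4 CPM in the animal controls. The deficient cells overlapped both controls (-0.16 ± 0.23, 95% interval -0.68 to 0.36, adjusted p = 0.874, and 0.17 ± 0.23, -0.35 to 0.69, adjusted p = 0.850). The lowest deficient and the lowest animal control value came from the same mouse, 232614. Within mice Smad7 was higher in the deficient cells in each of the 3, by 0.20, 0.14 and 0.17 on the log2 scale (0.17 ± 0.20 SE with the mouse as a block, adjusted p = 0.781). Ski (chromosome 4, 155154075 to 155222592), a corepressor of SMAD targets, measured 304, 321 and 207 CPM in the deficient libraries, 446, 339 and 322 CPM in the genetic and 451, 302 and 356 CPM in the animal controls. The deficient libraries lay below all genetic controls by a margin of about 1 CPM and overlapped the animal controls. Its difference was -0.42 ± 0.22 in both comparisons (95% interval -0.91 to 0.06 in each, adjusted p = 0.531 and 0.480), and without deficient library 432614 the differences were -0.23 and -0.23.

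**Figure D3:**
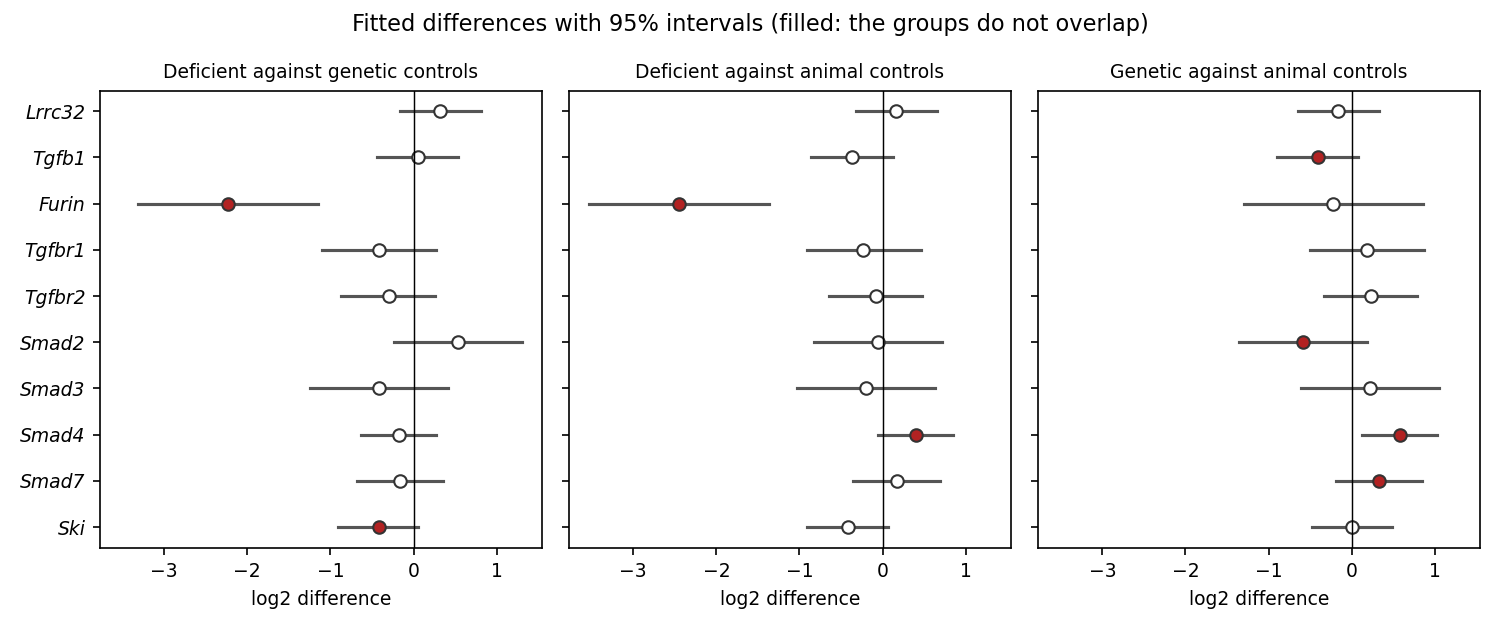
Fitted log2 differences (points) with 95% intervals (lines) for the 10 genes in the 3 comparisons; filled points mark genes whose libraries do not overlap between the 2 groups. The intervals of Furin, -3.31 to -1.15 and -3.53 to -1.37, are the only ones of the deficient comparisons that leave out 0, before adjustment over all genes.

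Counted over the 10 genes, the groups did not overlap for 2 against the genetic controls (Furin and Ski, both lower) and for 2 against the animal controls (Furin lower, Smad4 higher). These are 20.0% of the 10 genes, beside 15.7% and 15.9% of all genes. Over all genes 8.44% lay apart higher and 7.28% lower against the genetic controls, and 7.85% and 8.10% against the animal controls. Within mice, the deficient cells were higher than the animal controls in all 3 mice for 2 of the 10 genes (Smad4 and Smad7) and lower in all 3 for 1 (Furin, with differences of -2.43, -1.68 and -3.24), beside 15.2% and 14.6% of all genes. The comparison of genetic with animal controls asks what goes with the Foxp3 allele, the CD25 gate and the mice while both factors are kept. In it 0 of 10 were called, where 0.0365% of all genes were called, and at an unadjusted p under 0.05 stood Smad4 alone, beside 6.62% of all genes. No overlap between the groups was seen for 4 of 10 genes (Smad4 and Smad7 higher, Tgfb1 and Smad2 lower in the genetic controls), or 40.0% beside 10.4% of all genes (4.88% higher and 5.57% lower), each with a difference under 0.6 on the log2 scale in size.

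Of 65 other genes of the pathway, grouped by role, 46 were measured. Against the genetic controls 0 were called higher and 1 lower, and against the animal controls 0 higher and 1 lower; these shares lie beside 0.336% higher and 0.533% lower, and 0.307% and 0.584%, over all genes. In both comparisons the gene was Nrp1, a coreceptor for semaphorins that also binds latent TGF-beta. Nrp1 measured 46.5, 90.1 and 98.5 CPM in the deficient libraries, 429, 382 and 383 CPM in the genetic and 572, 782 and 879 CPM in the animal controls. Nrp1 fell against both controls (-2.42 ± 0.27, adjusted p = 0.00428, and -3.30 ± 0.27, adjusted p = 6.88e-04). Against the animal controls, with the mouse as a block, the difference was the same at -3.30 with an SE of 0.16, and its adjusted p was 0.0953. Against the genetic controls, on the 6 libraries of these groups alone, its adjusted p was 0.0562 at -2.42. Nrp1 was also lower in the genetic than in the animal controls, which both keep Thpok and LRF. These groups did not overlap, and their difference was -0.88 ± 0.27 (95% interval -1.5 to -0.27, adjusted p = 0.561 by limma). The median difference of the 46 genes was 0.03 and -0.02 in the 2 comparisons, beside 0.04 in each over all genes. Groups that did not overlap were seen for 26.1% of the 46 genes against the genetic controls (5 higher and 7 lower) and 15.2% against the animal controls (5 higher and 2 lower), beside 15.7% and 15.9% of all genes.

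Among the 8 measured genes of ligands and activation, Pcsk7, a convertase of the same family as furin, measured 25.4, 62.2 and 11.3 CPM in the deficient libraries, 14.2, 35.8 and 32.7 CPM in the genetic and 69.8, 41.7 and 53.5 CPM in the animal controls. The deficient cells overlapped both controls for Pcsk7 (0.04 ± 0.62, adjusted p = 1, and -1.04 ± 0.62, adjusted p = 0.562). Mmp14, a membrane metalloprotease, was under 0.1 CPM in all deficient libraries and above 8 CPM in 2 genetic controls and 1 animal control. It was also under 0.1 CPM in genetic control 8619 and in animal controls 232614 and 432614. Its differences were -6.96 ± 3.64 (adjusted p = 0.540 by limma) and -3.83 ± 3.64 (adjusted p = 0.763). Of the 8 receptors none was called. Tgfbr3, the coreceptor betaglycan, stood at 56.7 ± 20.0 CPM in the deficient libraries, 56.0 ± 27.7 CPM in the genetic and 14.4 ± 6.98 CPM in the animal controls. Both YFP+ groups lay above the animal controls for Tgfbr3 (2.02 ± 0.55 for the deficient cells, adjusted p = 0.159, and 1.91 ± 0.55 for the genetic controls, adjusted p = 0.507). The activin receptors Acvr1c and Acvr2a were at 22.0 CPM or less in every library.

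Of the 9 measured signal carriers and partners none was called. Tab1, an adaptor of the kinase TAK1, stood at 56.7 ± 7.94 CPM in the deficient cells against 21.6 ± 10.8 CPM in the genetic and 31.7 ± 33.6 CPM in the animal controls, with adjusted p of 0.487 and 0.494. Crebbp, a histone acetyltransferase that SMADs recruit, and Hgs, an endosomal sorting protein, differed by 0.48 or less on the log2 scale in both deficient comparisons. Of the 16 measured genes listed as inhibitors none was called in either deficient comparison, beside 0.869% and 0.891% of all genes. The list also holds Rnf111, Usp15 and Usp4, which promote the signal, so its counts are not of inhibitors alone. At an unadjusted p under 0.05 stood 3 of the 16 against the genetic controls and 2 against the animal controls, beside 10.6% and 11.9% of all genes. The groups lay apart for 37.5% of the 16 (3 higher and 3 lower) against the genetic controls and for 12.5% against the animal controls, beside 15.7% and 15.9% of all genes. Ldlrad4, a membrane protein that dampens SMAD phosphorylation, measured 35.7, 6.35 and 19.0 CPM in the deficient libraries, below all 6 controls (57.4, 67.6 and 107 CPM in the genetic and 48.0, 44.8 and 86.3 CPM in the animal controls). Its differences were -2.20 ± 0.59 (adjusted p = 0.161) and -1.81 ± 0.59 (adjusted p = 0.252). Skil, a relative of Ski, stood at 135 ± 4.84 CPM in the deficient cells, between the genetic controls at 183 ± 37.9 CPM and the animal controls at 90.5 ± 28.8 CPM. Tgif1, another SMAD corepressor, stood at 74.8 ± 16.2 CPM, between 41.9 ± 7.16 CPM in the genetic and 93.1 ± 18.2 CPM in the animal controls.

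Of 9 genes known to be induced by TGF-beta 5 were measured. None was called in either deficient comparison, beside 0.869% and 0.891% of all genes. Itgae, the integrin chain CD103, measured 446, 463 and 535 CPM in the deficient libraries, 220, 263 and 153 CPM in the genetic and 279, 126 and 342 CPM in the animal controls. All 3 deficient libraries lay above all 6 controls for Itgae. Its difference was 1.21 ± 0.34 against the genetic controls (adjusted p = 0.184) and 1.07 ± 0.34 against the animal controls (adjusted p = 0.240). Without animal control 232614, the lowest for Itgae, the adjusted p against the genetic controls was 0.0483 and the difference from the animal controls was 0.63. CD8 T cells also express Itgae, and Cd8a and Cd8b1 were higher in the deficient cells (above). Which cells made those transcripts was not tested, nor was a part of CD8 T cells in the Itgae values. Gpr15, a homing receptor of the large intestine, lay between 0.0362 and 7.18 CPM in the deficient libraries against 16.7 to 38.1 CPM in the genetic and 0.157 to 27.0 CPM in the animal controls. Tgfbi, a secreted matrix protein, was at 12.5 CPM or less in every library. For Klf10 and Id3, the rest of the 5, the deficient cells overlapped both controls. Klf10 differed by -0.01 ± 0.61 and 0.19 ± 0.61 from genetic and animal controls, and Id3 by -0.07 ± 0.24 and -0.15 ± 0.24.

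**Figure D4:**
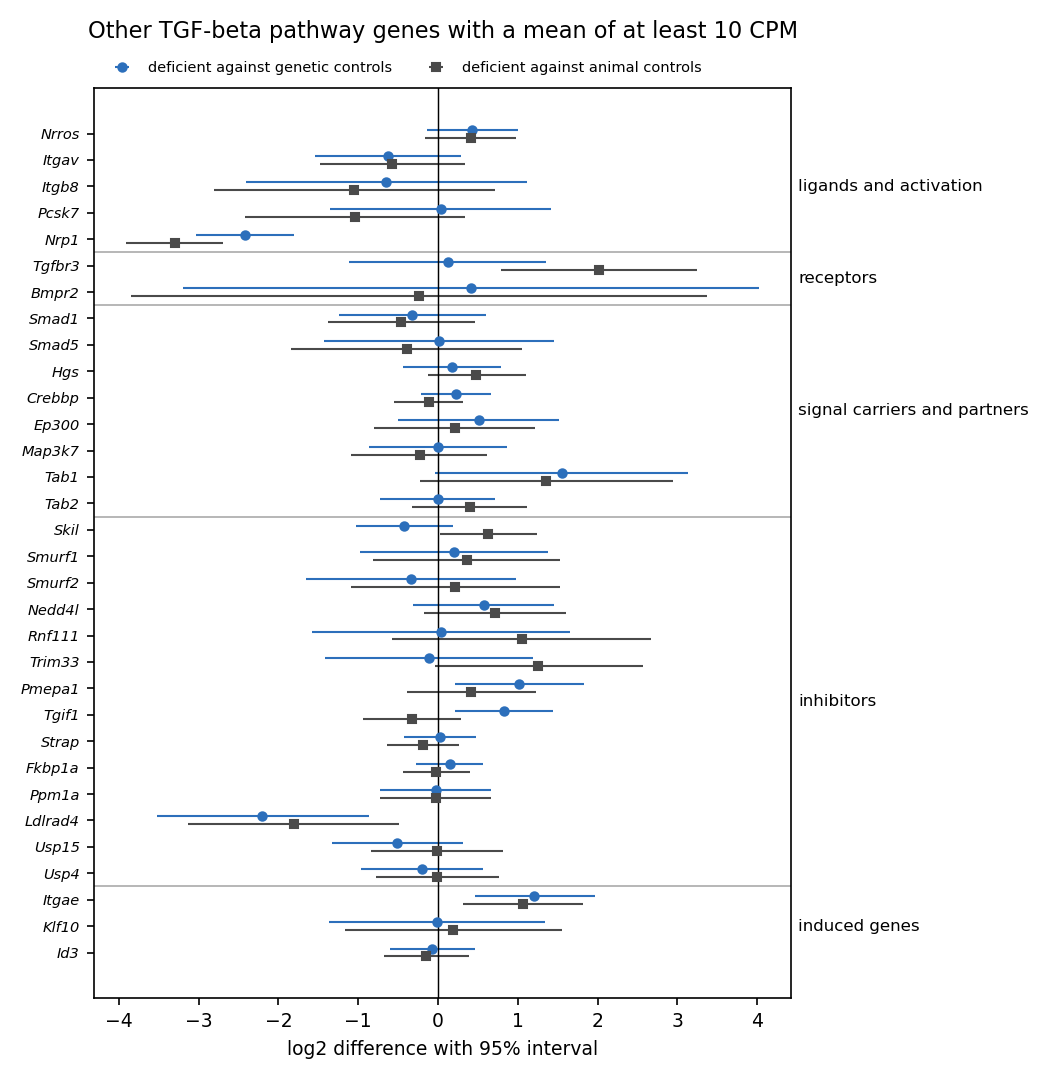
Fitted log2 differences with 95% intervals for the 32 other pathway genes whose mean reached 10 CPM, by role, for deficient cells against genetic controls (circles) and animal controls (squares). The role marked inhibitors also holds Rnf111, Usp15 and Usp4, which promote the signal. Nrp1 stands apart on the left at -2.42 and -3.30, with Ldlrad4 at -2.20 and -1.81. On the right lie Tab1 at 1.55 and 1.36, Itgae at 1.21 and 1.07 and, against the animal controls, Tgfbr3 at 2.02.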

How the data were processed

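Per the labels' protocols, RNA came from an RNeasy plus micro extraction, cDNA from the SMARTer Ultra Low Input kit and libraries from Nextera XT. The submitters' processing notes name bcl2fastq 1.8.4, STAR 2.4.0h, limma and mm10; the counting tool, annotation, gene filter and normalization are not stated there or in the labels. The deposited values are log2 CPM: linear values sum to between 999252 and 999256 per library, and all 9 libraries share the lowest (-7.77) and highest (13.42) value, as quantile normalization gives. Counts cannot be recovered, so no counting interval is given. Of 13702 rows, 4 exact duplicates were dropped. Values were used without a filter or pseudocount in limma 3.58.1 (R 4.3.3, with the mean-variance trend), as group means over all 9 libraries, with 3 contrasts, each tested on both sides, and p-values adjusted after Benjamini and Hochberg over all 13698 genes, with calls at 0.05. The fit was tested on simulated data. An exact permutation test of 3 against 3 libraries cannot go below 0.1, so none was run. Positions and exon lengths are from GENCODE M21 (GRCm38), promoter sequences from RefSeq (GRCm38.p6, Furin matched by symbol).

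The genes and lists were chosen with earlier results of these data known, so no p is adjusted over a list alone. Named genes were all 10 members, other pathway genes called in any comparison, the 2 with the lowest unadjusted p per role in each deficient comparison, and, for each member, the 3 genes with the highest Pearson r. Klf10 and Id3 were added so that all 5 measured induced genes are given. Furin's neighbours, the nearest 2 measured genes on each side, and the motifs were chosen after its values were seen. Deficient cells and animal controls with the same number come from the same mouse, so the mouse pairs them. Their deviations from the group means correlated at 0.0483, 0.0202 and 0.0170 over 7550 genes, against -0.0304 to 0.00803 for different mice. All these correlations were small. Deviations within a group cancel, so the values for the same mouse and for different mice depend on each other. The alternatives were a filter at a mean of 1 CPM, 1 CPM added before the log, no trend, the 6 libraries compared alone, median centring, the mouse as a replicate block, and leaving out each library.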

Additional observations from a re-analysis of the deposited data

How the results depend on the processing

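Depth is unknown and 3 libraries a group limit the precision. Of 10 genes 0 were called in each comparison when any library was left out (0 to 0); adding 1 CPM gave 1 call against the animal controls, Furin. With the mouse as a replicate block, on the 6 libraries alone, 0 of all genes were called by limma (1395 at an unadjusted p under 0.05) against 122. Every gene called in the main fit thus lost its call, Zbtb7b among them. Of the 10 genes and the other pathway genes, only Nrp1 had a call to lose. Against the genetic controls 119 of all genes were called, 22 on the 6 libraries alone and 48 to 93 without 1 library; the count was under 1.5 times lower only without animal control 142114 or 232614. Against the animal controls these were 122, 52 and 58 to 115, with 74, 81 and 58 without animal controls 142114, 232614 and 432614. Between the controls 5 were called, 32 without the trend, 3 on the 6 libraries and 4 to 10 without 1 library, the most without genetic control 124. On the 6 libraries alone Nrp1 missed the threshold against the genetic controls (adjusted p = 0.0562). The cause was not tested.

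Furin kept its direction in every alternative against both controls (adjusted p 0.0661 to 0.246 and 0.0401 to 0.284). Ski between the controls moved from 0.00 to -0.002 with median centring. Without 1 library these uncalled log2 differences changed direction. Between the controls: Acvr1c -3.21 to 2.05, Acvr2a -0.62 to 3.84, Furin -0.40 to 0.044, Itgae -0.58 to 0.14, Lrrc32 -0.33 to 0.086, Ski -0.14 to 0.15, Smad3 -0.16 to 0.45, Tab1 -0.65 to 0.65, Tgfbr2 -0.025 to 0.45. Deficient against animal controls: Acvr2a -3.31 to 1.15, Gpr15 -4.27 to 0.68, Smad2 -0.40 to 0.22, Smad3 -0.59 to 0.04, Tgfbi -0.26 to 5.44, Tgfbr2 -0.33 to 0.14. Against genetic controls: Hgs -0.10 to 0.35, Pcsk7 -0.59 to 0.64, Tgfb1 -0.083 to 0.13, Tgfbi -3.78 to 3.32, Tgfbr3 -0.41 to 0.42.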

Other observations

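Among the 10 genes, the pair most alike over the 9 libraries was Furin and Ski (Pearson r = 0.785), and the pair most opposed was Tgfb1 and Smad3 (r = -0.597). Deficient library 432614 was the lowest of the 9 for both Furin and Ski. The genes most like each of the other members, among 7282 searched, were Umps for Lrrc32 (r = 0.949), Eif1a for Tgfb1 (0.954), Fbxo45 for Tgfbr1 (0.931, after the receptor segment Trbv13-2 at 0.947), Mocs3 for Tgfbr2 (0.928), Rhno1 for Smad2 (0.945), Lonp1 for Smad3 (0.921), Exoc8 for Smad4 (0.952), Xrn1 for Smad7 (0.960) and Osbpl7 for Ski (0.982). The points share their libraries and normalization, and the highest of 7282 values over 9 points is given as a description only.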
